A study of Mus musculus with 16 samples.

Results

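Among the 7 DSS samples, 3 held more RNA of stromal genes than the other 4, and these 3 and 4 samples are compared here, genotypes pooled. The high-stromal samples were control 1, knockout 2 and knockout 3, and the low-stromal samples were control 2, control 3, knockout 1 and knockout 4. They were chosen on measured levels of stromal transcripts, with Col1a1, Col3a1 and Acta2 as markers, so every difference between them below is a description and carries no test. The series holds 16 samples, each the RNA of one mouse, and the other 9 came from mice given water. All DSS mice were female, received 3% dextran sulfate sodium (DSS, which injures the colonic epithelium) in the drinking water for 6 days, and were dissected at day 12 per the labels. EpCAM+ cells, that is, cells with the epithelial surface protein EpCAM, were sorted by flow cytometry from digested distal colonic mucosa. In DSS mice, the paper took injured regions, which it set apart from unaffected colon under a stereomicroscope. All mice, controls included, carried a floxed Tnfr2 (Tnfr2-f/f). The 3 controls carried no Cre, and the 4 mice labelled knockout were Vil1::Cre;Tnfr2-f/f, in which the villin promoter drives Cre in intestinal epithelium and not in stroma. The water-treated mice were 4 controls and 5 labelled knockout, 4 males in one cage and 5 females in another.

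The stroma beneath the colonic epithelium holds fibroblasts, smooth muscle cells, pericytes, blood and lymphatic vessels, nerves and leukocytes. Fibroblasts secrete the fibrillar collagens and small proteoglycans of the matrix, smooth muscle cells and myofibroblasts contain contractile actin, and endothelial cells line the vessels. None of these cells normally carries EpCAM, which is why EpCAM is used to sort epithelium away from them. In bulk RNA, fewer cells of a type and less RNA per cell cannot be told apart.

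The values are TPM, a measure of a transcript's share of a sample's transcripts. The authors scaled them within each table, and here they are summed over the listed transcripts of a gene. They did not add up to a fixed total. The sum was 539359 to 662142 in the 7 DSS samples and 487469 to 861109 in the 9 water-treated mice. The values do not give the depth of a sample. The DSS table held 22396 gene symbols, and 10899 of them averaged 1 TPM or more in these 7 samples. The number of genes at 1 TPM or more was 10749 to 10855 in the 3 high-stromal samples and 10310 to 10806 in the 4 low-stromal samples. Mitochondrially encoded transcripts took 41.7 to 45.9% of the TPM in the former and 29.7 to 43.3% in the latter. The cage label moved with the split in part: control 3 and knockout 1 shared cage c and were both low-stromal, while the 5 mice of cage d held all 3 high-stromal samples and 2 low-stromal ones.

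Col1a1 encodes a chain of type I collagen (chromosome 11, 94936224 to 94953042, GRCm38). It stood at 22 TPM in control 1, 32.1 TPM in knockout 2 and 24.6 TPM in knockout 3. In the low-stromal samples it stood at 6.56 TPM in control 2, 15.0 TPM in control 3, 6.77 TPM in knockout 1 and 5.77 TPM in knockout 4. The 2 sides did not overlap, and the samples nearest to the divide were control 1 above it and control 3 below it. Col3a1, the chain of type III collagen (chromosome 1, 45311538 to 45349706), stood at 110, 126 and 120 TPM in control 1, knockout 2 and knockout 3, against 32.2, 56.6, 34.5 and 29.4 TPM in control 2, control 3, knockout 1 and knockout 4. Acta2, the actin of smooth muscle and myofibroblasts (chromosome 19, 34241090 to 34255590), stood at 17.6, 16.0 and 18.5 TPM against 8.50, 8.92, 5.96 and 4.68 TPM in the same order. The ratio of mean TPM was 3.08 for Col1a1, 3.12 for Col3a1 and 2.47 for Acta2. Among the low-stromal samples, control 3 was the highest for all 3 markers.

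The epithelial identity of both sides was plain from the level of its defining markers. Epcam stood at 899 to 934 TPM in the high-stromal samples and at 894 to 1017 TPM in the low-stromal samples, and the sides overlapped. The summed TPM of the 35 fibroblast matrix genes made up 0.125, 0.145 and 0.176% of the listed TPM in control 1, knockout 2 and knockout 3, and 0.0535 to 0.0676% in the 4 low-stromal samples.

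**Figure D1:**
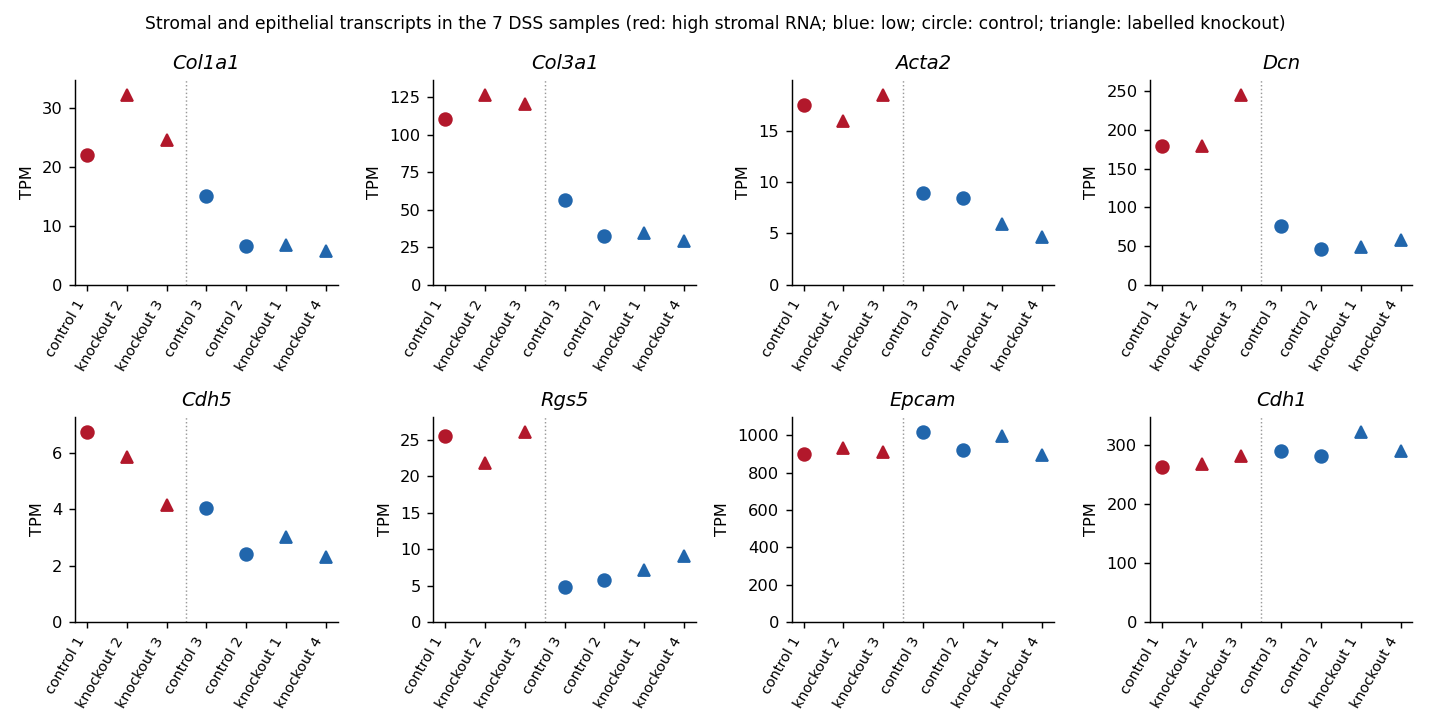
TPM (y axis, from 0) of 8 genes in each of the 7 DSS samples (x axis), with the 3 high-stromal samples in red, the 4 low-stromal samples in blue, controls as circles and labelled knockouts as triangles. The red points lie above the blue points for Col1a1, Col3a1, Acta2, Dcn, Cdh5 and Rgs5, overlap them for Epcam, and lie just below the lowest blue point for Cdh1.

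Of the 10899 genes, 746 (6.84%) were higher and 562 (5.16%) lower in the 3 samples than in the 4 with no overlap of the values. The median difference of the means over all genes was -0.01 on the log2(TPM + 1) scale, and 48.2% of genes had a difference above 0. The differences were larger on the high side: 234 of the 746 genes exceeded a difference of 1, against 43 of the 562 genes below -1. The background of 6.84% and 5.16% applies to each count of list members below and is not repeated with every count. Nothing is read from it, since the samples were chosen on stromal transcripts. A gene of low level can also reach the minimum of 1 TPM through the high-stromal samples alone and then has to be higher there, so the counts over members that reached it are descriptions only.

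**Figure D2:**
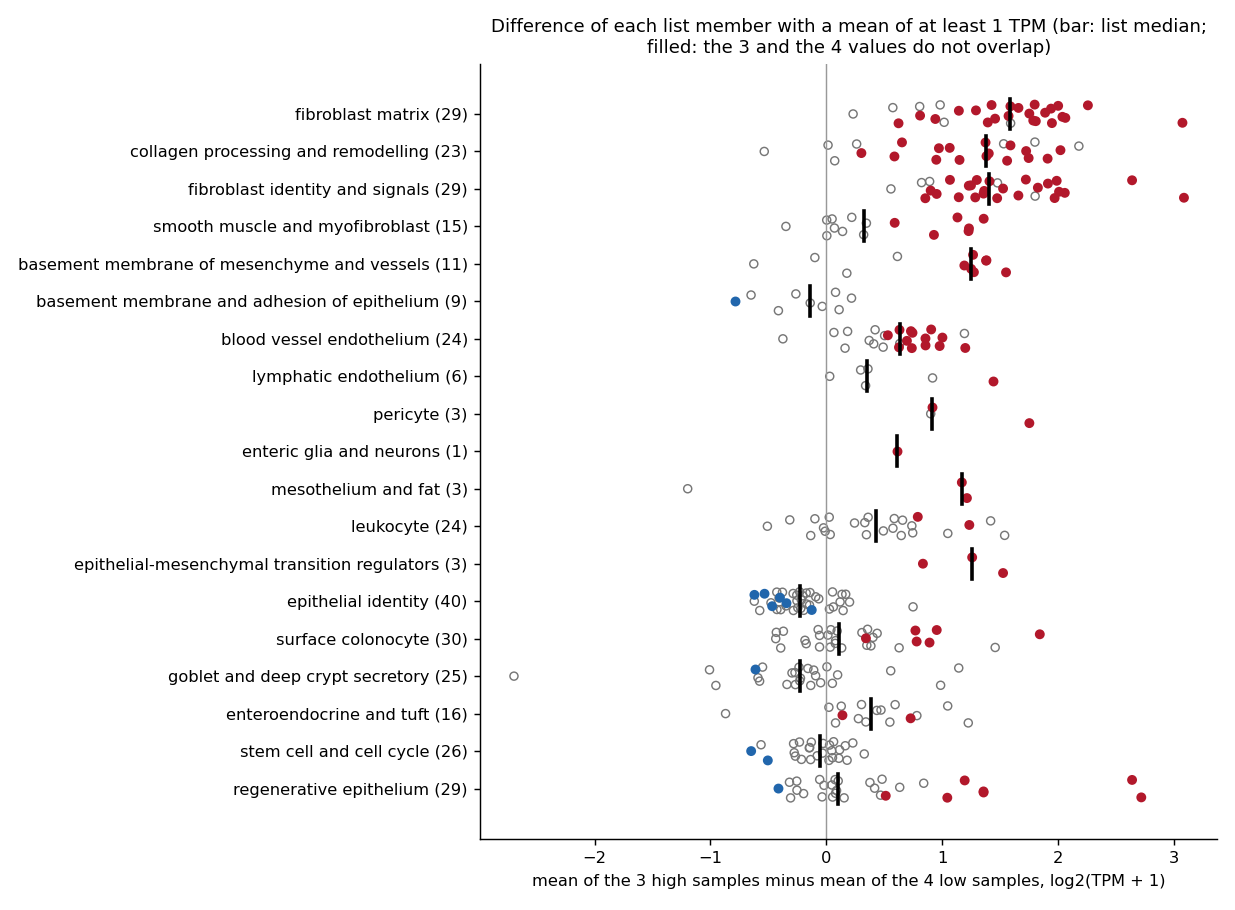
Difference of the means (x axis, high minus low, log2(TPM + 1)) for each member with a mean of at least 1 TPM in 19 gene lists (rows, number of members in parentheses). Filled points do not overlap between the 3 and the 4 samples and black bars are list medians, which run from 1.59 for fibroblast matrix genes to -0.23 for goblet cell genes.

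The fibroblast matrix list had the highest median difference of the 19 lists. Of 35 genes of fibrillar collagens, proteoglycans and elastic fibres, 29 reached the minimum of 1 TPM and 6 did not. All 29 had a difference above 0, with a median of 1.59, and 23 did not overlap (21 of 27 without the markers Col1a1 and Col3a1). Dcn, which encodes the proteoglycan decorin and was the most abundant of the proteoglycans named here, stood at 179, 179 and 245 TPM in control 1, knockout 2 and knockout 3, against 46.4, 75.6, 48.2 and 58.0 TPM in control 2, control 3, knockout 1 and knockout 4. The difference was 1.81, and no high-stromal sample came near the low ones. Lum, the related proteoglycan lumican, stood at 30.8 to 38.3 TPM against 4.53 to 9.56 TPM, a difference of 2.26. Dpt, encoding dermatopontin, stood at 42.4 to 72.9 TPM against 9.64 to 23.1 TPM. Bgn, encoding biglycan, stood at 53.3 to 86.5 TPM against 12.6 to 22.1 TPM. Ogn, encoding osteoglycin, stood at 16.1 to 19.8 TPM against 2.79 to 6.76 TPM. The difference was 2.07 for Dpt, 2.04 for Bgn and 2.00 for Ogn, close to the values of the proteoglycans above. Mfap4, a microfibril-associated protein, had the largest difference of the list at 3.08, with 10.9 to 30.5 TPM on the high side and control 2 and knockout 4 listed at 0.

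Not every matrix gene followed to the same degree. Thbs1, which encodes the secreted glycoprotein thrombospondin and which epithelial cells and platelets also make, stood at 160 to 224 TPM against 144 to 174 TPM, overlapped, and had a difference of 0.23. Eln, encoding elastin, also overlapped, since control 3 at 4.21 TPM lay within the range of 2.56 to 4.51 TPM of the high-stromal samples.

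The promoter sequences of Col3a1 and Col1a2 are shown because both genes belong to the collagens that followed the split and both are held in RefSeq's table on GRCm38.p6, which gave no entry for Col1a1. Each is the 250 bases before the annotated start, 5′ to 3′ on the plus strand, at chr1:45311288-45311537 and chr6:4505368-4505617, with capitals marking TATAAA in the first and CCAAT in the second.
Col3a1: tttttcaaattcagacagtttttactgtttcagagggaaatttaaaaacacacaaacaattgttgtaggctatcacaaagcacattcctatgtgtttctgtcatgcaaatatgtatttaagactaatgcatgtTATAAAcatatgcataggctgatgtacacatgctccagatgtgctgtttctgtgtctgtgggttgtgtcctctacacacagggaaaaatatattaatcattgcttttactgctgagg
Col1a2: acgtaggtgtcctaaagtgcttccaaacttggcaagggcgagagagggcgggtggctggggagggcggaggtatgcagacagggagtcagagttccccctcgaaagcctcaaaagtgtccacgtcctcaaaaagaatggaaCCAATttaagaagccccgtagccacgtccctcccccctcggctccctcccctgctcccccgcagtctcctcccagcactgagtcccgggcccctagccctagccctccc

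The letters TATAAA, on either strand, lay 117 to 112 bases before the start of Col3a1, and CCAAT lay 109 to 105 bases before the start of Col1a2. The 2 marked motifs lie in promoters on different chromosomes. TATAAA was found in 6 of 31 promoters of the fibroblast matrix list (19.4%), in 3 of 32 promoters of the epithelial identity list (9.38%) and in 12.4% of all 32851 promoters in the table. The 31 promoters belonged to 24 of the 35 fibroblast matrix genes and the 32 to 27 of the 40 epithelial identity genes. Promoters of the same gene were counted separately. CCAAT was found in 6 of the same 31 promoters (19.4%), in 7 of 32 promoters of the epithelial identity list (21.9%) and in 33.8% of all promoters.

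Genes that process and remodel collagen showed the same direction. Of 28 genes, 23 reached the minimum, 22 had a difference above 0 with a median of 1.38, and 16 were higher with no overlap. Timp1, an inhibitor of matrix metalloproteinases, stood at 16.4, 14.3 and 13.6 TPM in control 1, knockout 2 and knockout 3, against 1.25 to 4.16 TPM in the low-stromal samples. Mmp2, the gelatinase that cleaves denatured collagen, stood at 18.2 to 35.4 TPM against 3.67 to 7.44 TPM. Lox, which crosslinks collagen and elastin, stood at 4.45 to 8.98 TPM against 0.502 to 1.67 TPM. Pcolce, an enhancer of procollagen cleavage, and Loxl2, another crosslinking oxidase, had differences of 1.75 and 1.59 with no overlap. The sides overlapped for Mmp14, the membrane-bound metalloproteinase that epithelial cells also make, at 29.9 to 43.2 TPM against 29.7 to 45.0 TPM. Plod2, a collagen lysyl hydroxylase, was the 1 member below 0 (-0.54), with knockout 2 and knockout 3 listed at 0.

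Genes of fibroblast identity and signals comprised receptors, transcription factors, cytokines and growth factors. Of 45 genes, 29 reached the minimum, all 29 had a difference above 0 with a median of 1.41, and 24 did not overlap. Pdgfra, the receptor that marks intestinal fibroblasts, stood at 7.07, 11.3 and 12.6 TPM in control 1, knockout 2 and knockout 3, against 1.39 to 2.78 TPM in the low-stromal samples. Among secreted factors, Grem1, an antagonist of bone morphogenetic proteins made by fibroblasts around the crypt base, had the largest difference at 3.09. It stood at 23.6, 23.1 and 67.6 TPM on the high side and at 1.53, 2.91, 2.57 and 6.54 TPM in control 2, control 3, knockout 1 and knockout 4. Bmp5, one of the ligands that such antagonists bind, stood at 6.63 to 12.9 TPM against 0.867 to 2.6 TPM, a difference of 2.01. Ptgs2, which encodes the inducible cyclooxygenase and is not particular to fibroblasts, stood at 31.9 to 59.4 TPM against 2.98 to 9.57 TPM. The monocyte-attracting chemokines Ccl2 and Ccl7 had differences of 2.06 and 1.99, also with no overlap. Knockout 3 was the highest of the 7 samples for Grem1, Bmp5, Ccl2 and Ccl7, whereas control 1 was the highest for Ptgs2.

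Of 10 regulators linked to epithelial-mesenchymal transition, which fibroblasts also express, 3 reached the minimum. Over all 10 genes the median difference was 0.53. Vim, the intermediate filament of mesenchymal cells, stood at 47.0 to 61.0 TPM against 16.1 to 19.8 TPM. Snai2 stood at 1.87 to 2.64 TPM against 0.119 to 0.570 TPM, and Snai1, at 1.41 to 2.70 TPM against 0.300 to 0.909 TPM, was low in all samples. Both averaged under 1 TPM in the low-stromal samples and reached the minimum through the high-stromal ones. Vim also belongs to the fibroblast identity list.

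Smooth muscle genes followed the split less fully. The study's methods detached the mucosa from the muscle layer before digestion. Of 31 genes, 30 were listed (Myh11 was not analysed here) and 15 reached the minimum. Of these 15, 14 had a difference above 0 and 6 did not overlap (5 of 14 without Acta2), with a median of 0.32. Tagln, an actin-binding protein of contractile cells, stood at 13.5, 11.6 and 13.2 TPM in control 1, knockout 2 and knockout 3, against 7.12, 6.08, 4.53 and 3.80 TPM in control 2, control 3, knockout 1 and knockout 4. Myl9, the regulatory myosin light chain, had the largest difference of the list at 1.36, with 8.70 to 10.7 TPM against 2.35 to 5.31 TPM. Cav1, a caveolar protein that endothelial cells and fibroblasts share, stood at 12.7 to 24.0 TPM against 5.16 to 8.23 TPM. Pdlim3, a cytoskeletal protein of muscle, had a difference of 0.93 with no overlap. The intermediate filament gene Des, a defining marker of muscle, stayed under the minimum, at 1.24 to 1.33 TPM against 0.195 to 0.750 TPM. Actg2, the enteric smooth muscle actin, overlapped, at 1.31 to 4.43 TPM against 0.673 to 3.38 TPM. Tpm1 was the 1 member below 0 (-0.35), with knockout 2 and control 2 listed at 0. The members near 0, such as Csrp1, Ckb and Flna, are expressed by many cell types.

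Basement membrane genes were taken in 2 lists, by the cells that build them. Of the 15 genes of mesenchymal and vessel basement membrane, 11 reached the minimum and 7 were higher with no overlap, with a median of 1.25. Col4a1, a chain of type IV collagen, stood at 20.1, 27.9 and 33.7 TPM in control 1, knockout 2 and knockout 3, against 4.32 to 12.1 TPM in the low-stromal samples. Col4a2, Nid1, Lama2 and Sparc followed with differences of 1.28, 1.38, 1.27 and 1.38. Hspg2 and Agrn, which encode the heparan sulfate proteoglycans perlecan and agrin, overlapped and were below 0, at -0.63 and -0.10. Of the 14 genes of epithelial basement membrane and adhesion, 9 reached the minimum, none was higher with no overlap, and the median was -0.14 (0.15 within cage d). Itgb4, the hemidesmosome integrin chain, was lower with no overlap, at 2.97 to 4.14 TPM against 4.86 to 9.02 TPM.

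Blood vessel genes were higher by smaller amounts than fibroblast genes. Of 37 genes, 36 were listed (Erg was not analysed here), 24 reached the minimum, 23 had a difference above 0 and 13 did not overlap, with a median of 0.63. Cdh5, the cadherin of endothelial junctions, stood at 6.73, 5.86 and 4.15 TPM in control 1, knockout 2 and knockout 3, against 2.42, 4.03, 3.03 and 2.30 TPM in control 2, control 3, knockout 1 and knockout 4. The gap between knockout 3 and control 3 was narrow. Kdr, the receptor for vascular endothelial growth factor, stood at 3.61 to 4.76 TPM against 1.42 to 2.01 TPM. Emcn and Cd93, both endothelial surface glycoproteins, had differences of 1.20 and 1.00. Plvap, which forms the diaphragms of fenestrated capillaries and was among the more abundant members, stood at 21.6 to 27.0 TPM against 8.83 to 15.7 TPM. Pecam1, the other defining marker, had a mean under 1 TPM and was listed near 0 in control 1, control 2 and knockout 1, on both sides of the split.

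Lymphatic genes mostly overlapped. All 6 tested of 7 had a difference above 0, with a median of 0.35 (0.76 without knockout 3 and 0.22 without control 1), and 1 did not overlap. That gene was Pdpn, which fibroblasts also express, at 5.24 to 8.92 TPM against 1.39 to 2.08 TPM. The defining markers Lyve1, a hyaluronan receptor, and Prox1, the lymphatic transcription factor, overlapped, and knockout 3 held the lowest Lyve1 of the 7 samples at 4.75 TPM.

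Of 13 pericyte genes, 3 reached the minimum, and Rgs5, a defining marker that damps G protein signals, stood at 25.5, 21.9 and 26.1 TPM in control 1, knockout 2 and knockout 3, against 5.81, 4.77, 7.11 and 9.12 TPM in control 2, control 3, knockout 1 and knockout 4. Its difference of 1.75 was near that of the collagens, and the sides lay far apart. Cspg4, the other defining marker, stayed under 0.5 TPM in all 7 samples. Of 15 genes of enteric glia and neurons, 14 were under the minimum, among them the defining marker Sox10, a transcription factor of glia, which did not exceed 0.400 TPM. The remaining gene, Snap25, a synaptic and secretory vesicle protein that enteroendocrine cells also make, stood at 4.41 to 6.55 TPM against 2.10 to 3.88 TPM. Of 10 mesothelium and fat genes, 3 reached the minimum. Lpl and Fabp4 were higher with no overlap (1.22 and 1.17), while the remaining member overlapped and was below 0, at -1.20. Adipoq, Cfd and Wt1 were listed at 0 in all 7 samples. Fabp4 is also made by capillary endothelium. With every member above 0 in some sample counted, the median difference was 0.49 for 11 pericyte genes, 0.19 for 13 glia and neuron genes and 0.07 for 7 mesothelium and fat genes.

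Leukocyte genes did not separate the sides as a group. Of 32 genes, 24 reached the minimum and 18 had a difference above 0, with a median of 0.43 (0.26 to 0.61 with 1 sample left out). With no overlap, 2 were higher (8.33%, against 6.84% of all genes). The summed TPM of the 32 genes made up 0.322, 0.0624 and 0.0920% in control 1, knockout 2 and knockout 3, and 0.0364 to 0.117% in the low-stromal samples. Control 1 was the highest of the 7 samples for 2 neutrophil genes. S100a8, a calcium-binding protein, was at 904 TPM there, against 113 and 201 TPM in the other high-stromal samples and 19.2 to 234 TPM in the low-stromal samples. Csf3r, the neutrophil growth factor receptor, was at 10.7 TPM in control 1, 2.78 and 2.63 TPM in knockout 2 and knockout 3, and at most 1.96 TPM in the low-stromal samples. Ptprc, the common leukocyte antigen, was at 4.68 and 4.88 TPM in knockout 2 and knockout 3 and listed near 0 in control 1 and knockout 1. The part of leukocytes in the differences of the other lists was not tested.

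Immunoglobulin transcripts, which plasma cells make in large amounts, were examined after their values were seen. Of 259 such genes, 88 reached the minimum, 77 of them had a difference above 0, 10 were higher and none lower with no overlap, and the median was 1.78. The median was 0 within controls and 2.16 within labelled knockouts, and 28 of the 88 genes were above 0 in both genotypes. Their summed TPM made up 0.329, 0.375 and 2.32% in control 1, knockout 2 and knockout 3, and 0.0269, 0.0344, 0.0613 and 0.325% in control 2, control 3, knockout 1 and knockout 4. Knockout 4, the low-stromal sample with the highest share, thus came within a narrow margin of control 1. Igkc, the kappa constant region, stood at 766, 669 and 3510.25 TPM on the high side and at 61.5, 92.1, 114 and 630 TPM on the low side. Jchain, which joins polymeric IgA, stood at 66.4, 70.5 and 441 TPM against 5.18, 8.04, 11 and 48.9 TPM.

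Epithelial identity genes were on balance slightly lower in the high-stromal samples. All 40 reached the minimum, 31 had a difference below 0 with a median of -0.22, and 6 were lower and none higher with no overlap. Cdh1, the epithelial cadherin, stood at 264, 268 and 282 TPM in control 1, knockout 2 and knockout 3, against 282, 291, 322 and 290 TPM in control 2, control 3, knockout 1 and knockout 4, a difference of -0.12. Tjp3, a tight junction scaffold, had the largest difference of the 6 at -0.62, with 59.5 to 66.3 TPM against 71.0 to 174 TPM. Cdx1, an intestinal homeobox factor, stood at 119 to 125 TPM against 126 to 236 TPM, and the sides nearly met at knockout 2 and control 2. Prss8, Marveld2 and Ap1m2 were lower with no overlap by 0.53, 0.40 and 0.34. Krt8 and Vil1, the other defining markers, overlapped, with differences of -0.22 and -0.14, and control 3 was the highest of the 7 samples for both. Phgr1 was the opposite extreme at 0.75, with knockout 1 listed near 0. Leaving out control 3 brought the list median to -0.11, and within cage d it was -0.05.

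Surface colonocyte genes contained a subset that was higher in the high-stromal samples. Of 30 tested, 6 were higher and none lower with no overlap, and the median was 0.11 (0.31 without knockout 3 and 0.30 without control 3). Cyp2c55, a cytochrome P450 of the colonic surface, stood at 204, 356 and 151 TPM in control 1, knockout 2 and knockout 3, against 80.3, 108, 22 and 72.3 TPM in control 2, control 3, knockout 1 and knockout 4. Car1, a carbonic anhydrase, stood at 528 to 836 TPM against 264 to 368 TPM. Fabp2, a fatty acid carrier, stood at 213 to 281 TPM against 111 to 180 TPM. Emp1, a membrane protein, was higher by 0.77. Muc3 and Ms4a12 went the other way and overlapped, at -0.43 and -0.44.

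The remaining epithelial lists did not separate the sides. Of 25 goblet and deep crypt secretory genes, 19 had a difference below 0, with a list median of -0.23. The 25 differences ran from -2.70 to 1.14. Only 1, the transcription factor gene Creb3l1, was lower with no overlap (4%, against 5.16% of all genes), at 79.8 to 85.3 TPM against 98.6 to 199 TPM. The median of this list was 0.10 without control 3 and 0.20 within cage d, so its direction rested on control 3. Of 16 enteroendocrine and tuft genes, 15 had a difference above 0 with a median of 0.39, but the medians within genotype were -0.09 for controls and 1.00 for labelled knockouts. Tph1, the enzyme of serotonin synthesis in enterochromaffin cells, was higher with no overlap, at 63.7 to 73.1 TPM against 30.1 to 50.2 TPM. Of 26 stem cell and cell cycle genes, 2 were lower with no overlap (7.69%, against 5.16% of all genes). They were Smoc2, at 23.4 to 42.7 TPM against 44.5 to 56.4 TPM, and Plk1, a mitotic kinase, at 18.5 to 24.5 TPM against 25.9 to 46.4 TPM. Lgr5, the stem cell receptor, overlapped with a difference of 0.06. The median of the list was -0.05, which became 0.05 without control 1 and -0.26 within cage d.

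The regenerative epithelium list, genes known from colonic repair, split in its members. Of 29 tested, 7 were higher and 1 lower with no overlap, with a median of 0.10 (0.33 without knockout 1). The higher members were Ereg, Ptgs2, Gja1, Il33, Ccn2, Clu and Il1rn, several of which mesenchymal cells also express. The median of the list was 0.78 within controls and -0.06 within labelled knockouts. Of the 29 genes, 12 were above 0 in both genotypes and 6 below 0 in both. Which cells held the transcripts of this list was not tested. Ereg, a ligand of the epidermal growth factor receptor, stood at 36.3, 33.1 and 97.8 TPM in control 1, knockout 2 and knockout 3, against 7.17, 2.30, 8.63 and 11.8 TPM in control 2, control 3, knockout 1 and knockout 4. Ly6a, which the study takes as a marker of the regenerative state, and Anxa1 overlapped, with differences of 0.09 and 0.42. Ly6e, a related surface protein, was lower with no overlap by 0.41, and Hbegf, another ligand of the same receptor as Ereg, overlapped at -0.32.

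The cell type lists of the study's supplement are set beside the shares over all genes, 6.84% higher and 5.16% lower. Of 211 fetal intestine genes tested, 27 were higher (12.8%) and 13 lower (6.16%) with no overlap, with a median of 0.06. The absorptive list had 7 higher (14.3%) and 1 lower (2.04%) of 49. The enteroendocrine list had 5 higher (13.9%) and 2 lower (5.56%) of 36, and the tuft list 0 in either direction of 4. The goblet list had 0 higher and 1 lower (6.25%) of 16, and the deep secretory list 0 higher and 3 lower (6.25%) of 48. The first progenitor list had 0 higher and 2 lower (4.26%) of 47. The second had 1 higher (2.04%) and 9 lower (18.4%) of 49, and the third 1 higher (2%) and 3 lower (6%) of 50.

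The share of each list was also set beside the water-treated mice, whose table was scaled separately, so these are levels and not a comparison. The fibroblast matrix genes made up 0.0508 to 0.304% of the listed TPM in the 9 water-treated mice, with a median of 0.139%. That range took in the low side of the DSS split through 1 mouse only. It was water-treated labelled knockout 2, where immunoglobulin genes took 49.0% of the TPM, and the next lowest share was 0.124%. In summed TPM the genes stood at 437 to 1483 in the water-treated mice. The sums were 808 to 1118 on the high DSS side and 324 to 448 on the low one. The leukocyte list made up 0.291 to 0.707% in the water-treated mice. Immunoglobulin genes made up 1.70 to 49.0% there, with a median of 22%. Stromal and plasma cell transcripts were thus listed in the sorted cells of both treatments.

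**Figure D3:**
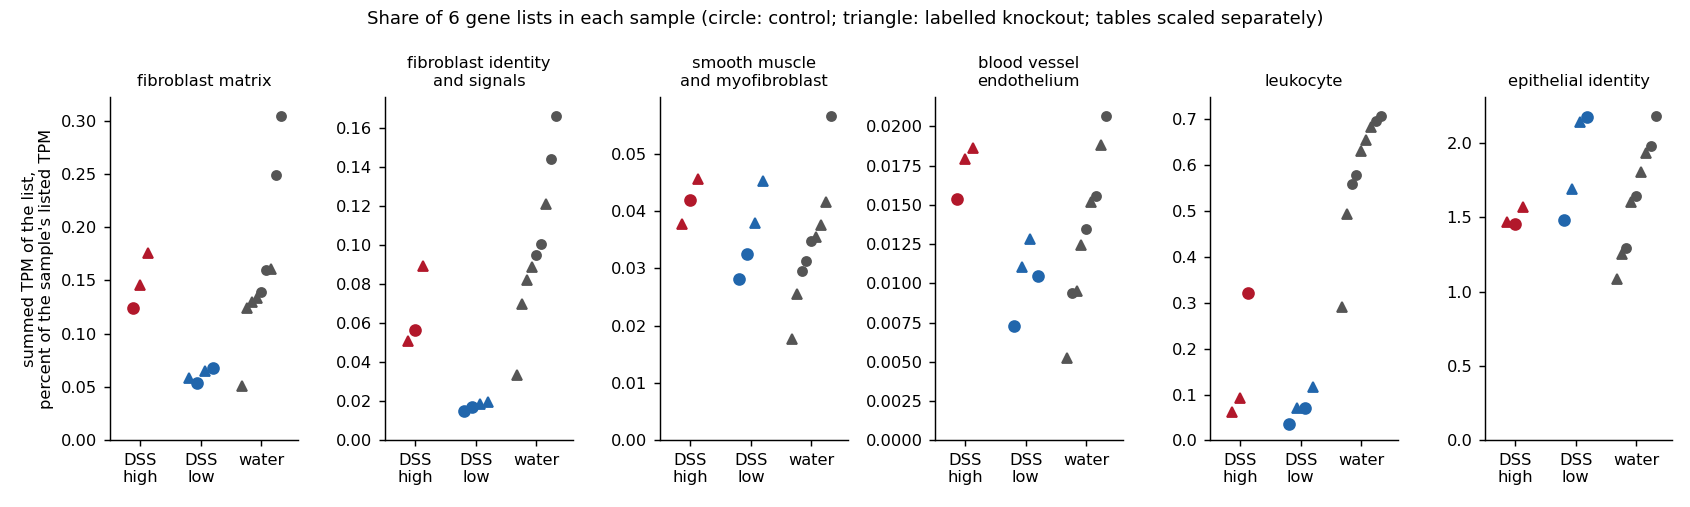
Summed TPM of 6 gene lists as a percent of the sample's listed TPM (y axes, from 0) in the 3 high-stromal DSS samples (red), the 4 low-stromal DSS samples (blue) and the 9 water-treated mice (grey), with controls as circles and labelled knockouts as triangles. The red and blue points are apart for the 2 fibroblast lists and for blood vessels, and overlap for smooth muscle, leukocytes and epithelial identity.

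Fibroblast genes went the same way within each genotype. Within controls, where control 1 was set against control 2 and control 3, the median difference of the fibroblast matrix genes was 1.20, and within labelled knockouts, 2 samples against 2, it was 1.86. All 29 genes were above 0 in both genotypes. A gene with no overlap must have the same sign in both, and 23 of the 29 had no overlap. The differences in this paragraph reuse the 7 samples on which the split was chosen, so they are descriptions too. For blood vessel genes the medians were 0.66 and 0.58, and 19 of 24 genes were above 0 in both. For smooth muscle genes they were 0.56 and 0.40, with 8 of 15 above 0 in both. For epithelial identity genes they were -0.17 and -0.17, with 29 of 40 below 0 in both. Within cage d alone, 3 samples against 2, the medians were 1.73 for fibroblast matrix, 0.72 for blood vessel and 0.47 for smooth muscle genes.

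Genotype is the contrast the study was built on, and the choice of samples did not use it. The split put 1 of 3 controls and 2 of 4 labelled knockouts on the high side. Col1a1 averaged 14.5 ± 7.73 TPM (SD, n = 3) in controls and 17.3 ± 13.1 TPM (SD, n = 4) in labelled knockouts, with an exact two-sided permutation p of 0.714. The exact permutation p was 0.800 for Col3a1 and 1.00 for Acta2, where 0.0286 is the smallest p that 3 against 4 mice allow. Over the 22 defining genes tested in this way the lowest exact permutation p was 0.200, for Prox1 (0.974 adjusted over the 22 genes). Tnfrsf1b, the gene of TNFR2 that the knockout targets, averaged 16.5 ± 4.95 TPM (SD, n = 3) in controls and 18.4 ± 6.02 TPM (SD, n = 4) in labelled knockouts (exact permutation p = 0.629), so the labels were not borne out by a lower level. The deposited values sum whole transcripts and cannot show a deleted exon. By flow cytometry the paper found less TNFR2 on EpCAM+ cells of the knockout, and by qPCR it found the expression lost in sorted cells. By limma with Benjamini-Hochberg adjustment over 10899 genes, 1 gene (0.00918%) differed between genotypes and none of the members of the 19 lists did. It was Tra2a, a splicing factor gene, with a log2 change of 3.46 ± 0.25 (SE, adjusted p = 0.0101), listed near 0 in control 1 and control 2, at 0.718 TPM in control 3 and at 10.4 to 14.4 TPM in the 4 labelled knockouts. With the stromal split as a covariate the adjusted p of Tra2a was 0.0243 and with the mean of the 3 markers 0.0406, and it remained the 1 gene called. With the replicate number as a block it was 0.282 and no gene was called, although the numbers do not pair these mice. Its adjusted p by limma was also above 0.05 without control 2 (0.0836) and without any 1 of the 4 labelled knockouts (0.0511 to 0.102).

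The 9 water-treated mice, which the choice of samples did not use, were then asked which genes move with the markers from mouse to mouse. Col1a1 spanned 8.62 to 35.8 TPM in these mice, with a median of 21.0 TPM. Col3a1 rose with it (Pearson r = 0.961, exact permutation p = 0.00011, adjusted over 5 relations 0.000551, Spearman rho = 0.90, exact permutation p = 0.00203, adjusted 0.0101). Without the 2 mice farthest from the median of Col1a1 the r was 0.887 (n = 7), and within the cages of 4 and 5 mice it was 0.965 and 0.970. Acta2 did not move with Col1a1 detectably (r = 0.0918, exact permutation p = 0.812, adjusted 0.971, rho = -0.10, exact permutation p = 0.810, adjusted 0.912), and r was -0.43 without the 2 farthest mice. Within the cages of 4 and 5 mice the r of Acta2 was 0.282 and -0.35.

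Pecam1 (r = 0.437, exact permutation p = 0.236, adjusted 0.417) and Ptprc (r = 0.427, exact permutation p = 0.250, adjusted 0.417) did not pass the test, nor did Epcam (r = 0.0145, exact permutation p = 0.971, adjusted 0.971). The rho was 0.514 for Pecam1 (exact permutation p = 0.159, adjusted 0.397), 0.367 for Ptprc (exact permutation p = 0.336, adjusted 0.560) and -0.05 for Epcam (exact permutation p = 0.912, adjusted 0.912). Without the 2 farthest mice the r was 0.507, 0.664 and -0.23 for Pecam1, Ptprc and Epcam. Within the cages of 4 and 5 mice it was 0.346 and 0.498 for Pecam1, -0.07 and 0.752 for Ptprc, and 0.863 and -0.47 for Epcam. Pecam1 was listed at 0 in 4 of the 9 mice.

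**Figure D4:**
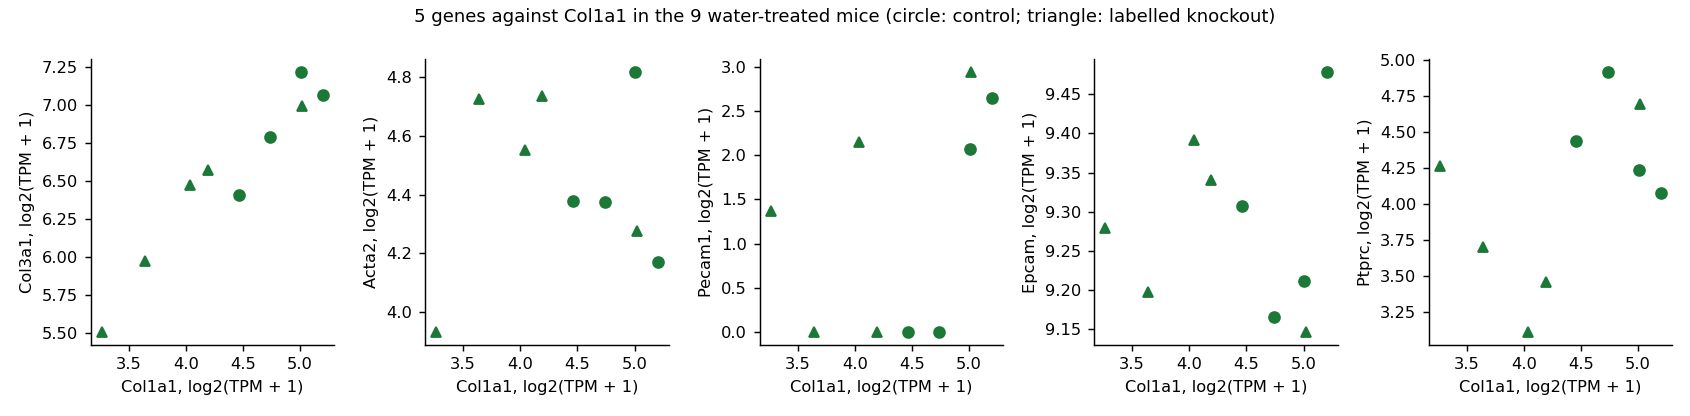
Log2(TPM + 1) of 5 genes (y axes) against that of Col1a1 (x axes) in the 9 water-treated mice, controls as circles and labelled knockouts as triangles. Col3a1 climbs with Col1a1 in step (r = 0.961), while Acta2 shows no clear slope (r = 0.0918).

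By a limma regression on the mean log2(TPM + 1) of the 3 markers over the 9 water-treated mice, 34 of 11043 genes (0.308%) rose and 1 (0.00906%) fell at an adjusted p under 0.05. Of the 30 fibroblast matrix genes tested, 10 rose, and all 30 coefficients were above 0, with a median of 1.20 against -0.02 over all genes. Of 23 collagen processing genes 5 rose, and of 30 fibroblast identity genes 1 rose. No gene of the smooth muscle (15 tested), blood vessel (24), lymphatic (4), pericyte (3), leukocyte (25) or epithelial identity (40) lists was called, and their median coefficients were 0.25, 0.31, 1.10, 0.82, 0.33 and 0.03. At an unadjusted p under 0.05, 24 of the 30 fibroblast matrix genes rose, against 1 of 15 smooth muscle and 2 of 24 blood vessel genes. Over all 11043 genes tested, 1202 passed this cut in either direction. By the same cut, 13 of 27 regenerative epithelium genes rose and 0 fell. Of 25 goblet and deep crypt secretory genes, 10 fell and 1 rose. At an adjusted p under 0.05, no gene of the 10 remaining lists was called either. The 3 markers themselves, which form the regressor, were not tested.

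The genes with the largest coefficients in the water-treated mice were Eln (1.68 ± 0.21, adjusted p = 0.0219 by limma), Angptl2 (1.58 ± 0.24, adjusted p = 0.0436), Ccl2 (1.54 ± 0.21, adjusted p = 0.0255), Bgn (1.5 ± 0.15, adjusted p = 0.0137) and Pcolce (1.47 ± 0.23, adjusted p = 0.0489), with SE over 9 mice. Angptl2 is a secreted angiopoietin-like protein made by stromal cells. Dcn (1.23 ± 0.13, adjusted p = 0.0145) and Ogn (1.19 ± 0.11, adjusted p = 0.00577) were also among them. Slc33a1, an acetyl-CoA transporter of the endoplasmic reticulum, was the 1 gene that fell (-0.78 ± 0.11, adjusted p = 0.026).

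Eln and Slc33a1 overlapped between the DSS sides, while Angptl2, Ccl2, Bgn, Pcolce, Dcn and Ogn did not. Of the 34 rising genes, 24 were higher with no overlap in the high-stromal DSS samples. Counted from the DSS side, 24 of 685 genes that were higher with no overlap and tested in water rose there (3.5%), against 0.308% of all genes tested in water. None of 547 that were lower with no overlap rose. Of the 685 genes, 72.1% had a coefficient above 0 with a median of 0.25, and of the 547 genes 42.8%, with a median of -0.04, against 48.2% of all genes. Of the 598 of these genes that belong to no stromal list, 9 rose in water (1.51%).

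The water-treated result leaned on single mice. Without labelled knockout 2, which had the lowest Col1a1, no gene was called (673 genes at an unadjusted p under 0.05), and without control 3, which had the highest, 2 were. Without labelled knockout 2 the median coefficient of the fibroblast matrix list was 1.4, with 30 of 31 above 0, whereas that of the smooth muscle list was -0.12 and that of the blood vessel list -0.10. The median also went to 0.04 for the pericyte, -0.08 for the leukocyte and -0.43 for the mesothelium and fat list. Immunoglobulin genes took 49.0% of the TPM in labelled knockout 2 and 1.70% in control 3, the largest and the smallest share of the 9 mice. The part of these shares in the water-treated result was not tested. With median-of-ratios rescaling 29 genes rose. Its factors were 1.00 to 1.03 in these 9 mice, so it hardly changed the values and does not bear on the shares.

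**Figure D5:**
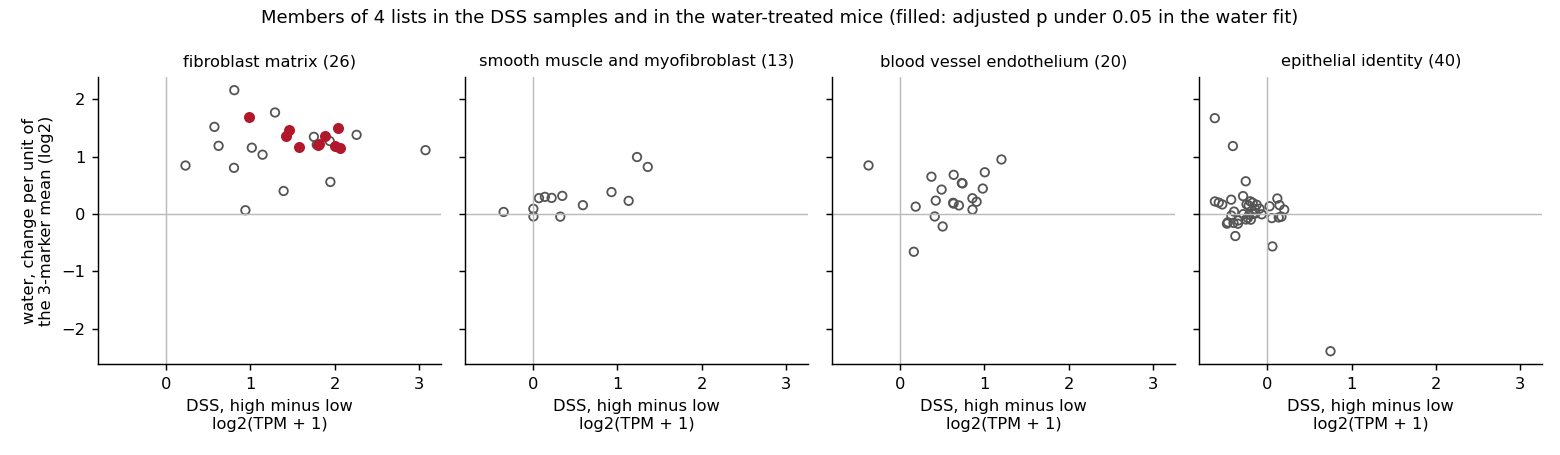
Each member of 4 lists (number tested in both tables in parentheses) placed by its difference between the DSS sides (x axis, high minus low, log2(TPM + 1)) and its coefficient in the 9 water-treated mice (y axis, log2 change per unit of the mean of the 3 markers), filled where the adjusted p was under 0.05. All fibroblast matrix genes shown lie to the right of and above 0, and most epithelial identity genes lie near 0 on both axes.

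Outside the lists, 8 of the 10 genes with the largest difference on the high side were immunoglobulin genes. Ighv1-15 stood at 57.1, 89.8 and 56.6 TPM in control 1, knockout 2 and knockout 3 and was listed at 0 in the 4 low-stromal samples. The others were Ighv1-78, Igkv1-110, Ighv1-72, Igkc, Igkv3-2, Ighv1-81 and Ighv5-4, together with Jchain and Gm4070. Variable segments resemble each other and the authors' counting can divide shared reads between them, so single segments are uncertain. On the low side the 10 genes were Rpl23a, Slc3a2, Trappc4, Hnrnpa1, Tldc2, Atp9a, Clcn7, Pml, Irf9 and Bspry. Rpl23a, a ribosomal protein gene, stood near 0 in control 1, at 15.6 and 93.6 TPM in knockout 2 and knockout 3, and at 187 to 288 TPM in the low-stromal samples. On each side, 8 of the 10 genes had at least 1 sample under 0.01 TPM, against 7.38% of all genes tested. Such values can be set by how reads were divided among isoforms, since only principal isoforms are listed, and that was not tested.

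The 10 genes of no list whose level was most like the mean of the 3 markers over the 7 DSS samples, as a description that shares the samples of the split, were Gm49369, Rbpj, Vopp1, Grb10, Emp3, Bdkrb1, Mgp, Fstl1, Adamts1 and Thbd, with Pearson r from 0.988 to 0.968. Mgp, which encodes a matrix protein that inhibits calcification, stood at 59.3, 80.7 and 91.9 TPM in control 1, knockout 2 and knockout 3, against 16.9, 38.5, 24.3 and 16.1 TPM in control 2, control 3, knockout 1 and knockout 4. Fstl1, encoding a secreted follistatin-like protein, stood at 18.2 to 25.7 TPM against 4.85 to 8.17 TPM. Thbd, encoding the endothelial receptor thrombomodulin, stood at 9.05 to 10.4 TPM against 2.19 to 3.40 TPM. For Gm49369, Rbpj and Grb10, 3 of the 4 low-stromal samples were listed at or near 0.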

How the data were processed

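RNA of sorted EpCAM+ colonic cells was measured in 7 DSS and 9 water samples, each from 1 mouse. The authors quantified stranded single-end reads with kallisto and deposited 1 table per treatment with TPM per transcript and mouse, scaled with sleuth within the table; tool names and the build, mm10, are from the labels. The deposited tables list APPRIS principal isoforms only, and also hold the authors' p-values, q-values and fold changes of genotype, which were not used. Of 29373 lines, 385 repeats were dropped, and TPM was summed per gene symbol over 28988 transcripts. Positions are from GENCODE M21, where 96.0% of transcripts matched with the same version.

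Means of log2(TPM + 1) were compared between 3 high-stromal and 4 low-stromal samples over genes averaging 1 TPM or more, without a test, and a gene was counted where the values did not overlap. The members and lists were chosen with earlier results of these data known. Genotype after DSS and the regression on the 3 markers in water-treated mice were fitted by limma 3.58.1 with a variance trend in R 4.3.3, over all genes, with Benjamini-Hochberg adjustment, and called at an adjusted p under 0.05. The limma fits were also run on simulated data in which each gene varied independently. Such data cannot show how the fits behave where genes vary together. Single genes were tested by exact permutation of mice or pairings. Levels were not tested between treatments, since the tables were scaled separately. Tables and exact tests were computed in Python 3.11.15 (pandas 2.3.3, numpy 2.4.6), and plots were drawn with matplotlib 3.10.9.

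Named genes were the 3 markers, Tnfrsf1b, defining cell type markers, up to 5 non-overlapping members of each list with the largest difference and up to 2 of opposite sign, the 10 non-overlapping genes of no list with the largest difference in each direction, up to 5 genes called in each direction in the water-treated mice, the 10 genes of no list most correlated with the markers, and genes called for genotype. A few further list members, such as Thbs1, Mmp14, S100a8, Lgr5 and Ly6a, were named after their values were seen. Alternatives were a pseudocount of 0.1, all genes above 0 or a mean of at least 5 TPM, median-of-ratios rescaling, quantile normalization, cage d alone, within-genotype differences, covariates and leaving out each sample. TPM gives no depth, so the number of mice sets the precision.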

Additional observations from a re-analysis of the deposited data

How the results depend on the processing

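Precision rests on 3 against 4 mice, and the difference between the sides was fixed by how they were chosen. The number of genes that do not overlap depends on the number of samples and genes: for higher genes it was 1176 (6.81%) with all genes above 0, 387 (5.26%) with a mean of at least 5 TPM and 1567 (14.4%) in cage d alone, where 1235 (11.4%) were lower, and leaving out 1 sample gave 921 to 1177 higher and 735 to 1380 lower genes, most of both without control 2 of the DSS group. The median of the fibroblast matrix list was 1.86 and that of the blood vessel list 0.90 with a pseudocount of 0.1, and the latter was 1.05 with a mean of at least 5 TPM, which left 2 genes. Leaving out 1 sample, the 2 lists stayed between 1.42 and 1.81 and between 0.58 and 0.70.

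For genotype after DSS, 0 genes were called with the replicate number as a block (169 at an unadjusted p under 0.05), with a pseudocount of 0.1 (277) and with all genes above 0 (545), by limma. Leaving out 1 sample gave 0 to 3, with 3 without control 1, 2 without control 3, 1 without labelled knockout 4 and 0 without each of the other samples. Same-numbered mice are different animals, and the correlations of their deviations from the group means (-0.20, -0.03 and -0.16 for numbers 1 to 3) did not pair them. In the water-treated mice, 20 genes rose and 0 fell with cage as a covariate, 18 rose and 2 fell with all genes above 0, and 0 rose and 0 fell (486 at an unadjusted p under 0.05) with Acta2 alone as the regressor, an alternative chosen after seeing the data; with Col3a1 alone, also chosen then, 25 rose. Leaving out 1 mouse gave 0 to 25 rising and 0 to 1 falling genes, with 0 without labelled knockout 2, 2 without control 3, 8 without labelled knockout 3, 10 without labelled knockout 4, 11 without control 2 and 19 to 25 without each of the others, and the cause was not tested. The 5 correlations with Col1a1 kept their side of the threshold when 1 mouse was left out, with r of Col3a1 between 0.938 and 0.971. At a mean of at least 5 TPM no member of the enteric glia and neuron list was left, so that setting gave no value for it.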
